A study of Macaca fascicularis with 8 samples.

Results

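Heart-only regions are stretches of open chromatin that were called as a peak in the heart of a cynomolgus monkey and in none of 6 other organs. They were chosen by measured values, namely the presence of a peak in the heart list and the absence of one that overlaps it by at least 1 bp in the lists of colon, kidney, liver, lung, spleen and uterus. Of 245443 regions obtained by merging the 7 lists, 65120 held a heart peak and 12391 of these, or 19.0%, were heart-only. Each of the 12391 regions corresponded to exactly 1 of the 68713 deposited heart peaks. That these regions had a peak in heart and lacked one elsewhere is therefore fixed by the choice and is no result.

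Single-cell ATAC-seq (scATAC-seq) libraries were made from 8 samples of 7 organs of *Macaca fascicularis*, all labelled as adult and normal. The female monkey gave heart, colon, lung, uterus and liver replicate 1, while the male monkey gave kidney, spleen and liver replicate 2. No treatment or genetic change is named for any of them. The heart was 1 library of 1 animal, so there is no replicate, a difference between heart and another organ could not be tested, and organ and library cannot be told apart. Kidney, spleen and liver replicate 2 also differed from the heart in the animal. Liver replicate 1 was left out of the lists by the same rule and is treated apart.

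In this assay the Tn5 transposase cuts DNA where nucleosomes leave it accessible, mainly at promoters and enhancers, and a droplet barcode marks the nucleus of origin. Promoters tend to be open in many cell types, whereas enhancers tend to be open in few, which is why accessible regions are used to tell cell types and organs apart. The heart is built of cardiomyocytes, the contracting muscle cells, together with endothelial cells, fibroblasts, mural cells and immune cells. A region open in the whole organ can thus be open in any of these cells, and the counts per barcode show how its signal is spread over them. Peaks were not paired with gene names, so the organ label was not checked against heart marker genes and the cell clusters below carry numbers instead of cell type names.

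Of 5693 heart barcodes, 5220 (91.7%) had at least 1000 counts in peaks and are called cells here. They held 52904154 counts of cut ends, with a median of 7077.5 per cell. Since 79.8% of the non-zero entries were even, as when both ends of a fragment fall in a peak, counts were also converted to fragments by dividing by 2 and rounding up, which gave 28734826. Of the 5220 cells, 551 (10.6%) carried a barcode that also occurs in another library. Heart-only regions took 68.9 of 1000 fragments in those 551 cells and 69.2 of 1000 in the other 4669. Cells are not replicates, and all intervals below are 95% intervals that cover counting error only.

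The heart-only regions were short, shallow and open in few cells. They spanned 5.07 Mb, or 9.02% of the length of all heart peaks, and held 6.04% of the counts and 6.92% of the fragments (exact binomial interval 6.91 to 6.93). Had only a peak that covers 50% of the heart peak ended membership, they would have numbered 15982 and held 11.9% of the counts. Their median width was 358 bp, with quartiles of 210 and 516.5 bp. The median was 413 bp for heart peaks of regions found in 1 other list and 1116 bp for those found in all 7 lists. Counts per peak followed the same order, with medians of 199 in heart-only regions, 244 in regions of 2 lists and 1143 in regions of all 7 lists. The median heart-only region had a count in 2.39% of the cells, against 2.78% and 9.81%. The heart-only class was the lowest of the 7 classes in all 3 medians, but its quartiles overlapped those of every class found in 2 to 6 lists. A wider heart peak more easily meets a peak of another list at 1 bp, so part of the order in width is built into the choice. Counts and shares of cells rise with width and carry the same limit. How large that part is was not tested.

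**Figure D1:**
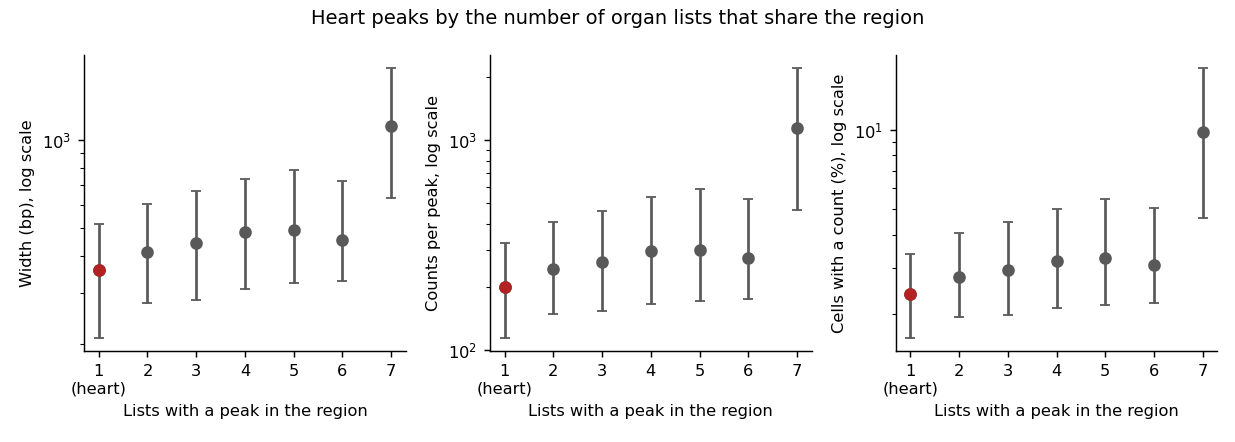
Width in bp, counts per peak and percent of cells with a count (all on log axes) for heart peaks by the number of organ lists that share the region, with points for medians and bars for quartiles. The heart-only class (red, median 358 bp, 199 counts and 2.39% of cells) lies lowest, and regions of all 7 lists (1116 bp, 1143 counts and 9.81%) stand well above those of 2 to 6 lists.

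The signal per length differed less. Heart-only regions held a median of 39.5 fragments per 100 bp, regions of 2 lists 39.3 and regions of all 7 lists 49.7. Width and fragments ranked nearly alike among the heart-only regions (Spearman's rho 0.98 over 12391 peaks of the same library, given as a description), so a wide heart-only region was also a deep one. Regions wider than 2000 bp numbered 70 (0.565%) among the heart-only and made up 8.91% of the other heart peaks. The widest measured 8972 bp and the narrowest 1 bp.

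A fraction of the regions carried hardly any signal. In 89 heart-only regions no cell had a count. At this depth that allows a count in up to 0.0575% of the cells. It sets no bound on the share of cells in which the region is open. Fewer than 10 fragments were found in 508 (4.10%), against 1.59% of the other heart peaks. These 508 had a median width of 12 bp, and 485 of them were narrower than 50 bp. At the upper end, 1143 (9.22%) were open in at least 5% of the cells, against 43.1% of the other heart peaks, and 66 in at least 10%. No heart-only region exceeded 22.5% of the cells.

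At the edge of the choice, the 100 regions that lay within 50 bp of another organ's peak had a median width of 269 bp, 148.5 counts and a count in 1.96% of the cells. Just outside, 1712 heart peaks were no members because of an overlap of 1 to 50 bp. Their medians were 29 bp, 10 counts and 0.192% of the cells, and a peak under 50 bp can have no longer overlap. The 3591 heart peaks that were no members although no other peak covered 50% of them were larger, with medians of 828 bp, 558 counts and 5.17% of the cells. The median distance from a heart-only region to the nearest peak of another organ was 3.04 kb, and 2628 (21.2%) were more than 10 kb from one.

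The heart-only regions can be set beside the own-only regions of the other organs of the female monkey, lung (14105, or 17.9% of lung regions), colon (24599, or 23.6%) and uterus (2276, or 6.64%). Median widths were 391 bp in lung, 399 bp in colon and 302 bp in uterus, and median counts were 293, 183 and 269. The median share of an organ's own cells with a count was 1.37% in lung, 0.879% in colon and 3.15% in uterus, and those libraries held 13117, 12404 and 5770 cells. Own-only regions took 5.79% of the lung counts, 5.96% of the colon counts and 1.76% of the uterus counts, beside the 6.04% in heart. Over all 7 libraries this share ranged from 1.76% in uterus to 11.6% in liver. With 1 library per organ these differences were not tested.

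The fragments of the heart-only regions were unevenly spread over the cells. Among 1000 fragments of a cell, the median cell had 51.1 in heart-only regions, with a 10th percentile of 33.7, a 90th percentile of 104 and a range of 0.982 to 164. The distribution had more than 1 mode. There were 1511 cells at 40 to 50 per 1000 and 417 cells at 100 to 110, and only 117 at 70 to 80. The 1146 cells (22.0%) at 80 or more held 57.3% of all heart-only fragments and 38.2% of the fragments overall. At the low end, 299 cells had fewer than 20.

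Accordingly, 630 cells (12.1%) were enough to hold 50% of the heart-only fragments. For the fragments in regions of all 7 lists, 1066 cells (20.4%) were needed, and for those of 2 lists 803 (15.4%). Part of this count moves with the depth of the cells. When every cell was thinned to 500 fragments, for which no cell had to be left out, the values were 31.4% for heart-only regions, 36.5% for regions of 2 lists and 46.4% for regions of all 7 lists. The classes still differed in fragments per cell, since they took 69.2, 49.9 and 663 of 1000 fragments. A class with fewer fragments per cell lies in fewer cells by counting alone. Between heart-only regions and regions of 2 lists this goes the other way, since heart-only regions had more fragments per cell. Own-only regions of other organs of the female monkey were also unevenly spread. In counts as deposited, 50% of the own-only counts lay in 11.7% of the cells in heart, 15.8% in colon, 17.1% in lung and 20.7% in uterus, against 19.4%, 25.4%, 26.5% and 26.8% for all counts. The 90th percentile of own-only counts per 1000 was 3.29 times the 10th in heart, 7.40 times in colon, 8.06 times in lung and 6.46 times in uterus.

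The cells were clustered on 53078 heart peaks that are not heart-only, so that no member shaped the clusters. Heart-only fragments differed 9.78-fold between the highest and the lowest of the 12 clusters. Cluster 6 had 104.8 per 1000 (exact interval 104.5 to 105.0, 442 cells), cluster 4 had 104.7 (104.3 to 105.2, 476 cells) and cluster 7 had 95.04 (94.6 to 95.5, 261 cells). The next was cluster 2 with 59.9 (905 cells). Clusters 1 and 3, with 1183 and 841 cells, had 47.6 and 47.1, and clusters 5, 9 and 11 between 41.4 and 42.3. The lowest were cluster 12 with 29.5, cluster 8 with 12.9 and cluster 10 with 10.7 (10.4 to 11.1, 109 cells). Clusters 6 and 4 overlapped in their intervals, and the gap from cluster 7 to cluster 2 was the largest in the order.

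**Figure D2:**
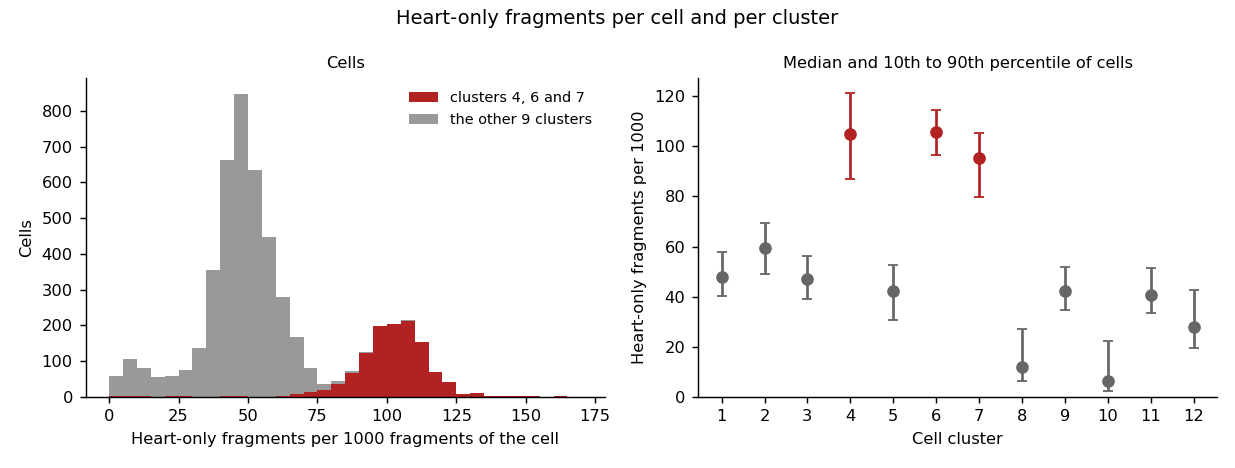
Left, the number of cells by heart-only fragments per 1000 fragments of the cell in bins of 5, stacked for clusters 4, 6 and 7 (red) and the other 9 clusters (grey). Right, the median and the 10th to 90th percentile of cells per cluster, where clusters 4, 6 and 7 have medians of 105, 105.6 and 95.2 and no other cluster reaches 60.

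The 3 high clusters were not alike in depth. Cells of cluster 6 had a median of 14948.5 fragments, those of cluster 7 had 5948 and those of cluster 4 had 3003.5, which is below the 3674 of cluster 2. Cluster 6 alone contributed 39.6% of the heart-only fragments and 26.2% of all fragments from 8.47% of the cells. Without it, 19.1% of the cells held 50% of the heart-only fragments and the median region was open in 1.47% of the cells. Doublets were not removed, and their part in the deep cells was not tested. After thinning to equal depth, the 3 clusters had 101.4 per 1000 and the others 46.4, against 103.2 and 47.6 before.

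The same 3 clusters also stood apart by peaks that are no members. Peaks of regions found in heart and kidney only took 17.5 to 18.7 of 1000 fragments in clusters 4, 6 and 7 and 1.60 to 6.27 in the other 9. Peaks shared with liver only were also highest there, with 13.2 to 14.7 of 1000 against 1.53 to 9.73. The clusters are called kidney-sharing below as a working name, and the line between both sets, at 10 per 1000, was drawn after these values were seen. They held 1179 cells (22.6%), 38.8% of all fragments and 57.8% of the heart-only fragments. With every cell thinned to 500 fragments, these clusters held 39.0% of the heart-only fragments. Their share of all thinned fragments equals their share of the cells, 22.6%. Regions of all 7 lists took 611 of 1000 fragments in the kidney-sharing clusters and 697 in the others, and since all shares sum to 1000, a higher share of some classes lowers that of the rest. A window at EGFL7, a gene for a factor secreted by endothelial cells, gave 1636 of 1000000 fragments in cluster 11, 1360 in cluster 5, 794 in cluster 1 and 633 in cluster 3. The kidney-sharing clusters, with 226 to 432, overlapped the remaining 5, which ranged from 125 to 429. In clusters 11 and 5, where that window was highest, heart-only regions took 42.1 and 41.4 of 1000 fragments, below the 47.6 over all clusters that are not kidney-sharing.

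Most heart-only regions were strongly tilted toward or away from the kidney-sharing clusters. Clusters 4, 6 and 7 were already seen to be the highest in heart-only fragments. An excess of higher members over other heart peaks largely restates this region by region and is no separate result. Of the 12391, 8679 had at least 100 fragments and were compared between both sets by their share of fragments. At least 2-fold higher in the kidney-sharing clusters were 4907 (56.5%), where 26.7% of all 58060 heart peaks with at least 100 fragments were. Depth was not matched beyond that minimum. At least 2-fold lower were 2961 (34.1%), where 29.6% of all heart peaks were. The remaining 811 (9.34%) lay between. Peaks in regions of 2 lists were also split, with 43.5% higher, 41.0% lower and 15.5% between, whereas 74.3% of the peaks in regions of all 7 lists lay between. More than 8-fold higher were 3632 (41.8%), against 12.7% of all heart peaks. The median log2 fold of the heart-only regions was 2.12, with quartiles of -2.32 and 4.16. Without cluster 6, the deepest, 56.0% were at least 2-fold higher, where 26.9% of all heart peaks were, and 32.8% were at least 2-fold lower. The minimum of 100 fragments was still counted over all cells, cluster 6 included.

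**Figure D3:**
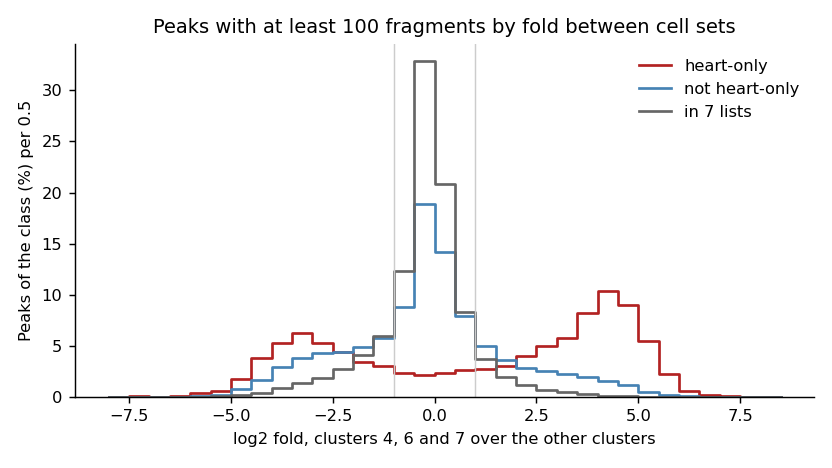
Percent of peaks per 0.5 step of the log2 fold between the kidney-sharing clusters 4, 6 and 7 and the other clusters, for peaks with at least 100 fragments, with lines at 2-fold either way. Heart-only regions (red, 8679 peaks) form a group on each side and have 9.34% between the lines, while peaks in regions of all 7 lists (dark grey) have 74.3% there.

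The 4907 higher regions had a median width of 452 bp, 172 fragments and a fragment in 2.95% of the cells, and the 2961 lower regions had 413 bp, 159 fragments and 2.82%. Of the 70 heart-only regions wider than 2000 bp, 67 were among the higher, 3 lay between and 0 were among the lower. Of all 5087 heart peaks of that width and at least 100 fragments, 13.0% were higher, 72.2% lay between and 14.8% were lower. In the 77 such peaks in regions of 2 lists the shares were 77.9%, 10.4% and 11.7%. The higher regions held 53.9% of all heart-only fragments and the lower 28.2%.

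For each region a leading cluster was taken in 2610 cells, and its fold over the other clusters was read in the other 2610. Of the 8679 regions, 12.0% led in cluster 1, 11.6% in cluster 2 and 7.01% in cluster 3, against 7.79%, 7.99% and 5.52% of the heart peaks that are not heart-only. Clusters 6, 4 and 7 led in 21.6%, 18.8% and 10.1%, against 6.78%, 7.31% and 5.90%. Among the lower regions alone, 956 led in cluster 1, 735 in cluster 2 and 484 in cluster 3 (32.3%, 24.8% and 16.3%), against 21.7%, 14.98% and 11.4% of the 14209 lower heart peaks that are not heart-only. That lower regions do not lead in clusters 4, 6 and 7, and that higher regions mostly do, largely follows from how the classes were defined. In the held-out cells 6889 (79.4%) of the 8679 regions were at least 2-fold higher in their leading cluster, where 56.1% of all heart peaks were. The median held-out fold was 3.67, against 3.36 for regions of 2 lists and 1.66 for regions of all 7 lists. Cluster 8 led in 32 heart-only regions (0.369%) and cluster 10 in 14 (0.161%), against 9.08% and 12.6% of the heart peaks that are not heart-only. In the smallest clusters the lead mostly did not hold in the held-out cells. At least 2-fold higher there were 1 of 14 regions of cluster 10, 156 of 428 of cluster 11 and 102 of 553 of cluster 12. Of the heart peaks that are not heart-only, 2733 of 6227, 1337 of 4792 and 2062 of 7405 were.

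The 2 regions per cluster with the highest held-out folds were 206 to 998 bp wide. For cluster 2 they were chr8:37949740-37950012, with 50 held-out fragments in the cluster and 1 elsewhere (ratio of rates 302, exact interval 51.7 to 12149.8), and chr7:6450822-6451309, with 99 and 2 (ratio 299, interval 80.5 to 2500.2). The lead of cluster 3, chr9:109591528-109591961, had 75 and 8 fragments, or 67.2-fold (32.4 to 161). For cluster 1, chr13:43919405-43919629 had 46 and 3, a ratio of 51.8 (16.7 to 261). The lead of cluster 6, chr6:43603757-43603962, was 18.3-fold higher (8.17 to 48.0), that of cluster 7, chr12:66114675-66115672, 9.19-fold (5.96 to 14.0) and that of cluster 4, chr15:93202371-93202621, 7.61-fold (4.11 to 13.7), each over all other clusters, the other kidney-sharing ones included. In the smaller clusters, chr5:42596441-42596754 was 50.4-fold higher in cluster 12 (22.0 to 102), but on 9 fragments there. That region also had a fragment in 8.48% of the kidney-sharing cells and in 0.520% of the others, cluster 12 included. In cluster 9, chr15:81054779-81055252 was 24.5-fold higher (15.8 to 37.2), and in cluster 11, chr16:2327114-2327738 was 18.6-fold higher (8.57 to 36.0). In cluster 8, chr10:23819525-23819805 was 17.3-fold higher (8.93 to 31.8), and in cluster 5, chr9:5481785-5482040 was 10.5-fold higher (5.47 to 19.7). For cluster 10 the higher of both, chr20:10965113-10965392, rested on 4 fragments in the cluster and reached 7.94-fold (2.08 to 21.6). It also had a fragment in 7.12% of the kidney-sharing cells and in 0.445% of the others, cluster 10 included. These regions were picked as the highest of many, so that their folds are a description.

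The deepest heart-only region was chr10:94962738-94968058, which is 5321 bp wide and held 2402 fragments in 914 cells, 17.5% of all (exact interval 16.5 to 18.6). A fragment was found in 70.4% of the kidney-sharing cells and in 2.08% of the others. With all cells thinned to 500 fragments these shares were 12.4% and 0.346%, and by share of fragments the region was 34.8-fold higher in the kidney-sharing clusters. Of 1000000 fragments it had 353 in cluster 4, 276 in cluster 7 and 154 in cluster 6, and at most 16.9 in any other cluster. The order of the 3 clusters was the reverse of the order of their depths. The region was flanked by another wide member, chr10:94956893-94962087, of 5195 bp with 1416 fragments and a 24.0-fold difference.

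The widest, chr12:66262106-66271077, spanned 8972 bp and held 2295 fragments in 851 cells. It was open in 64.0% of the kidney-sharing cells and 2.38% of the others, or in 9.84% and 0.421% after thinning. Of 1000000 fragments it had 306 in cluster 7, 219 in cluster 4 and 162 in cluster 6. Also among the 5 deepest were chr1:12349849-12355786, 5938 bp wide, with 2258 fragments and a 35.8-fold difference, and chr11:110111178-110115929, 4752 bp wide, with 1556 fragments and a 33.8-fold difference. These 4 of the 5 deepest regions had the same tilt. Among them, chr12:66262106-66271077 and chr1:12349849-12355786 lie in dense windows described below.

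The fourth of the 5 deepest regions had no such tilt. The region chr13:61341869-61345251, 3383 bp wide with 1773 fragments, was open in the largest share of cells of any heart-only region, 22.5% (21.4 to 23.7). By share of fragments it was 1.37-fold higher in the kidney-sharing clusters. The shares of cells were 40.2% and 17.4% as deposited and 2.97% and 2.43% after thinning. It also overlapped a peak of liver replicate 1. So did chr13:43919405-43919629, the lead of cluster 1, and chr19:50977559-50979849, which was 27.3-fold higher in the kidney-sharing clusters.

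How far a region was confined to few cells was read as the number of cells with a fragment over the number expected had its fragments fallen on cells in proportion to their depth. This ratio had a median of 0.948 over the 10659 heart-only regions with at least 50 fragments, 0.945 in regions of 2 lists and 0.956 in regions of all 7 lists. The medians were thus close. In deeper peaks they parted. At 50 to 100 fragments the ratio was 0.992 in heart-only regions and 0.988 in regions of all 7 lists, at 200 to 400 it was 0.901 and 0.956, and at 400 to 800 it was 0.829 and 0.947. Above 800 fragments the 52 heart-only regions had 0.682 and the 9178 peaks in regions of all 7 lists 0.956. Regions of 2 lists stood near the heart-only ones, at 0.918, 0.876 and 0.704 in the last 3 bands.

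A ratio under 0.8 was seen in 254 heart-only regions (2.38%), where 1.48% of all heart peaks had one. In regions of 2 lists the share was 2.39% and in regions of all 7 lists 0.668%, so that the heart-only and 2-list classes did not stand apart by this count. The lowest ratio among regions with at least 200 fragments was that of chr12:66262106-66271077, at 0.527, where 1613 cells were expected and 1 cell held 21 fragments. A narrower region among the 5 lowest, chr19:50977559-50979849 of 2291 bp, had 0.589, with 1378 fragments in 646 cells and a 27.3-fold difference between the cell sets.

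**Figure D4:**
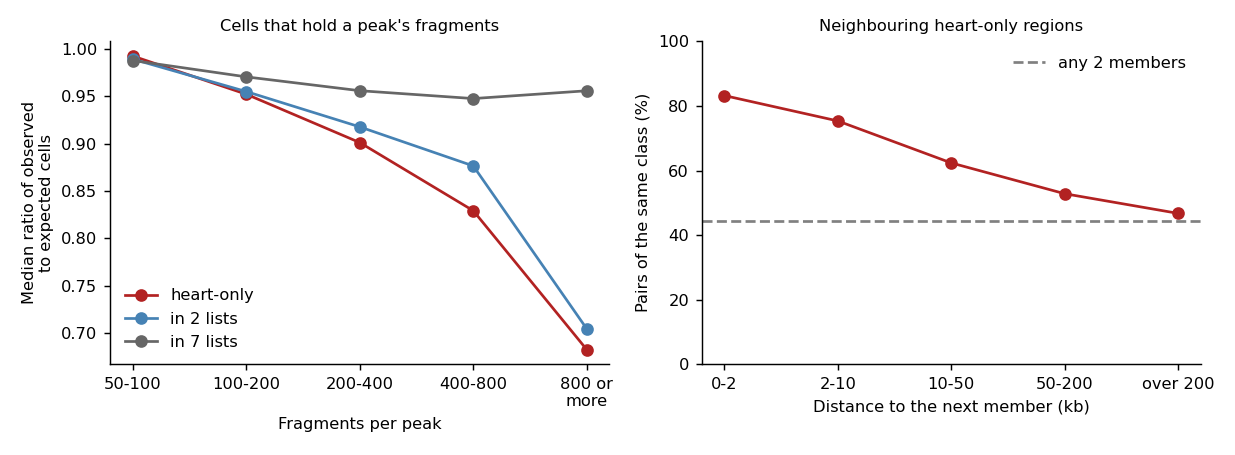
Left, the median ratio of observed to expected cells by fragments per peak for 3 classes of heart peaks, on an axis that does not start at 0. The heart-only ratio falls from 0.992 to 0.682, while that of regions in all 7 lists stays at 0.947 or above. Right, the percent of neighbouring heart-only regions of the same class by the distance between them, from 83.2% under 2 kb to 46.7% over 200 kb, with 44.5% for any pair (dashed).

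Along the genome there were 4.39 heart-only regions per Mb. Of the 12391, 4047 (32.7%) lay within 10 kb of another, against 62.9% for the other heart peaks, and the median distance to the nearest was 25.5 kb against 5.92 kb. The other heart peaks numbered 56322, so that these distances are not at equal density. The share of heart regions that were heart-only ranged over the 21 chromosomes from 6.58% on chromosome 19 (151 of 2295) to 25.01% on chromosome 12 (652 of 2607), with 24.6% on chromosome 5. Of the 652 on chromosome 12, 93 lay in 1 dense window described below, so its rank rests in part on that window. Chromosome 19 was also among the densest in heart regions of any kind, with 39.0 per Mb. Chromosome X had the fewest heart-only regions per length, 1.12 per Mb, and 14.0% of its heart regions were heart-only.

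**Figure D5:**
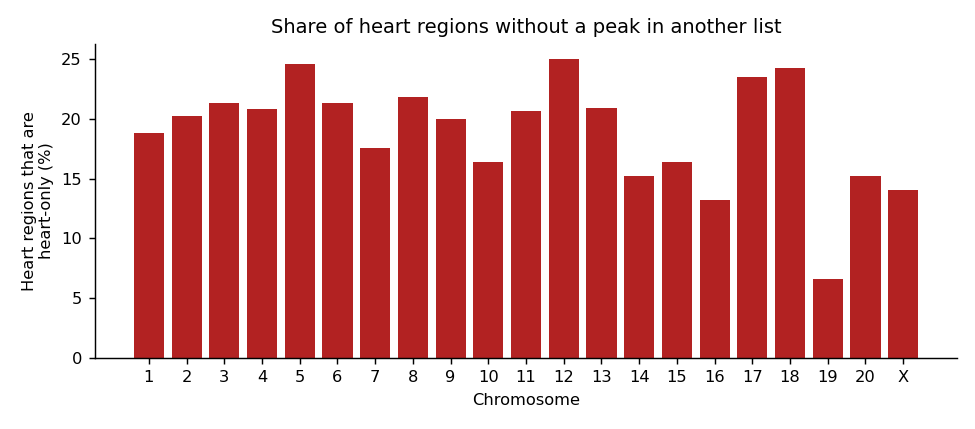
Percent of heart regions that were heart-only on each of 21 chromosomes. Chromosome 19 stands lowest at 6.58% and chromosome 12 highest at 25.01%.

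They were unevenly spread. In 2836 windows of 1 Mb the median was 3 heart-only regions, 498 windows had 0, and the variance over windows was 7.04 times the mean. The 10% of windows with the most held 34.1% of the heart-only regions, and the same share of windows held 31.4% of the other heart peaks. The window at 11 to 12 Mb of chromosome 1 (chr1:11000001-12000000) held 156 of them among 188 heart peaks, and all 106 with at least 100 fragments were at least 2-fold higher in the kidney-sharing clusters. That window took 2.85 of 1000 fragments in those clusters and 0.118 in the others. It had 38 kidney regions, 17 colon regions and 9 liver regions, and 0 in uterus. The window chr12:66000001-67000000 held 93 among 106 heart peaks, again with all 66 of the deeper ones on the higher side, at 2.16 and 0.0956 per 1000. The window next to the first, chr1:12000001-13000000, held 42, with 27 of 29 on the higher side. The last of the 5 were chr3:159000001-160000000 with 37 (24 of 31) and chr9:21000001-22000000 with 35 (16 of 23). The first of these windows thus held both the densest set and members of a single tilt, whereas the fourth and the fifth were mixed.

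Within the dense windows, members followed each other with no region of another organ in between. Such runs were looked for after the windows were seen. Most members, 8589 (69.3%), stood alone. The longest runs had 35 members each, in chr1:11717310-11823726 (106 kb, 7503 fragments) and chr12:66104022-66228985 (125 kb, 8181 fragments). All 19 and all 23 of their regions with at least 100 fragments were on the higher side, with median log2 folds of 4.62 and 4.50. The leading region of cluster 7, chr12:66114675-66115672, lies inside the second run.

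Neighbouring heart-only regions less than 2 kb apart fell into the same class (higher, lower or between) in 83.2% of 447 pairs, and into opposite classes in 5.37%. At 2 to 10 kb 75.4% of 978 pairs shared the class, at 10 to 50 kb 62.4% of 1809, and at 50 to 200 kb 52.8% of 2304. Beyond 200 kb it was 46.7% of 3120, near the 44.5% for any pair of members. The share of like pairs thus fell step by step with distance. Among neighbouring heart peaks of all kinds it was 59.3% under 2 kb, 54.0% at 2 to 10 kb and 41.5% beyond 200 kb, against 35.0% for any pair, and among peaks in regions of 2 lists 72.3%, 64.5% and 40.2%, against 38.1%. Without the 5 densest windows, left out after seeing the data, it was 79.2% of 356 pairs under 2 kb, 72.9% of 883 at 2 to 10 kb and 46.6% beyond 200 kb, against 43.9% for any pair.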

How the data were processed

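Single-cell ATAC-seq was deposited for 8 libraries. Per the labels, reads were processed with Cell Ranger ATAC 1.2.0, and the authors deposited for each library a peak list, barcodes and a matrix of raw counts, 1 for each cut end that falls in a peak, for every barcode. Positions are those of the deposited peaks, written with the first base as 1. Their genome build was not given in the sources used here, so genes and sequences were not analysed, except for the EGFL7 window that the study prints.

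Lists were merged at an overlap of at least 1 bp. Heart barcodes with at least 1000 counts were kept and doublets were not called. Heart peaks outside the heart-only set detected in 1% of the cells or more were set to present or absent, tf-idf transformed and projected on 30 components, of which 29 with a correlation to depth under 0.75 were used. Leiden clusters came from a shared graph of 20 neighbours at resolution 0.8 and seed 1 (leidenalg 0.10.2, igraph 0.11.9, scikit-learn 1.9.0, numpy 2.4.6, scipy 1.17.1, Python 3.11.15). Folds between cell sets used a pseudocount of 0.5 fragments. Intervals are exact at 95%. They are binomial for shares of cells and for the share of a whole library's counts or fragments. For heart-only fragments per 1000 in a cluster they are Poisson, and for held-out folds they are those of a ratio of rates. The clustering and the formulas for the ratio of observed to expected cells and for the fold between cell groups were tested on simulated data. The other steps were not. The merged lists held 1 library per organ, so no difference between organs was tested. Dixon's criterion served only to look for a library far from the others.

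Named regions are the 5 with the most fragments, the 5 widest, the 5 with the lowest ratio at 200 fragments or more, the 5 windows of 1 Mb with the most members, and for each cluster the 2 members of at least 100 fragments with the highest held-out fold, of which 1 is printed for most clusters. Members and lists were chosen with earlier results of these data known. The alternatives varied the overlap rule, the lists, the cells, the depth and the clustering.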

Additional observations from a re-analysis of the deposited data

Results flagged for a closer look

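Liver replicate 1, from the same female monkey as the heart, was not used to choose the regions and had peaks in some of them. Of the 12391 heart-only regions, 1616 (13.0%) overlapped 1 of its peaks, and 1622 of its 165942 peaks were involved. This was the lowest share among the classes compared, with 17.2% of the heart peaks shared with kidney only, 21.2% with uterus only, 27.3% with lung only, 59.3% with liver only and 96.7% of those in 7 lists. These held 7275 counts, or 0.277% of the library (exact binomial interval 0.268 to 0.286). The sum runs over peaks called in this library, so a value above 0 is fixed by the choice. A median such peak had 3 counts and 421 had none, against a median of 5 over all peaks of that library. A count of 0 allows an expected count of up to 3. The median of 3 thus lies near the floor, which does not make it the same as no signal. The overlapping heart-only regions were wider (median 409 bp against 350 bp) and held more heart counts (239 against 194). Among those with at least 100 fragments, 33.3% were at least 2-fold higher in the kidney-sharing clusters, against 60.5% of the regions without such an overlap. The other classes went the same way, with 49.4% against 64.1% for peaks shared with liver only, 18.8% against 42.2% for lung, 52.0% against 71.1% for kidney, 25.8% against 31.5% for uterus and 7.67% against 33.9% in 7 lists. No cause was tested.

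For 6 measures of the own-only regions, none of the 7 libraries stood apart from the others by Dixon's criterion.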

How the results depend on the processing

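Of 80 values under alternatives, 44 stayed within the counting interval of the reported value or, for counts, depths and widths, within 1.5 times of it, and 36 did not. For the median share of cells and the median ratio, that interval was the one of a single region at the median. It is wide for a median over many regions, so staying within it says little. The number of regions, their median counts and their median width stayed within 1.5 times of the reported value under every alternative tried on them. With liver replicate 1 among the lists, 16.5% of the heart regions were heart-only, holding 5.07% of the counts, and 30.7% of them lay within 10 kb of another. When only a peak that covers 50% of the heart peak ended membership, the values were 24.5%, 11.9% and 40.0%, and without regions within 500 bp of another list 17.3%, 5.57% and 31.5%. Leaving out 1 list gave shares of regions and of counts of 20.7% and 6.66% without colon, 21.5% and 7.04% without kidney, 21.7% and 7.04% without liver, 21.8% and 7.17% without lung, 20.97% and 6.76% without spleen, and 19.8% and 6.42% without uterus.

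At a minimum of 2000 counts the members held 6.07% of the counts, and 13.3% of the cells held 50% of their fragments. Without the 5% of barcodes with the most counts these were 5.41% and 17.0%, and the median region was open in 1.81% of the cells. Thinning to 1000 counts (500 fragments) gave a median share of cells of 0.192%, a ratio of observed to expected cells of 0.985, and 31.4% of the cells for 50% of the fragments. That ratio was read only in regions that still had at least 50 fragments after thinning. These were fewer and deeper than the 10659 regions behind the reported median ratio, so 0.985 cannot be set beside that value. With clusters found on regions of all 7 lists, the fold between the highest and lowest cluster was 8.998. It was 9.78 at both other resolutions and with the other seed. Chosen after seeing the data, leaving out cluster 6 gave 4.87% of the counts, 1.47% of the cells for the median region and 19.1% of the cells for 50% of the fragments, and leaving out the 5 densest windows gave 5.77% of the counts and 30.8% within 10 kb, with 79.2% of neighbours under 2 kb apart in the same class. Cluster 6 thus moved the share of cells that holds 50% of the heart-only fragments by more than 1.5 times. The median ratio of observed to expected cells was 0.948 with and without cluster 6. For other classes of peaks, the share of cells was not read without cluster 6.

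The depth of the other 6 libraries, which their peak lists rest on, was not varied. Values of regions under 10 fragments rest on few counts.

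No paired analysis was possible because the heart is 1 library and shares fewer than 2 replicate numbers with any other organ.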

Other observations

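Heart peaks of regions shared with a single other organ divided between the cell sets in different proportions. Of the 1136 peaks shared with kidney only and holding at least 100 fragments, 67.3% were at least 2-fold higher in the kidney-sharing clusters, which these peaks had defined, and 19.2% lower. Of the 1184 shared with liver only, 55.1% were higher and 30.6% lower. Of the 719 shared with colon only, 33.1% were higher and 52.9% lower. Of the 1333 peaks shared with lung only, 35.3% were higher and 48.1% lower. Of the 959 shared with spleen only, 25.8% were higher and 56.7% lower, and of the 399 shared with uterus only, 30.1% and 50.9%. Among the heart-only regions the shares were 56.5% and 34.1%. Peaks shared with lung only took 13.6 of 1000 fragments in cluster 1 and 2.06 in cluster 10, and peaks shared with spleen only 10.5 and 1.42. These differences were not tested.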
